A study of Homo sapiens with 6 samples.

Results

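Receptors, G proteins and their regulators form 1 signalling route, and its genes were followed through H3K4me3 peak calls in BE(2)-C cells, an established human neuroblastoma line with an amplified MYCN gene. G protein-coupled receptors sit in the cell membrane and, once bound by a ligand, make a heterotrimeric G protein exchange GDP for GTP on its alpha subunit. The alpha subunit and the beta-gamma pair then act on enzymes and channels, and regulators of G protein signalling (RGS) end the signal by speeding up GTP hydrolysis. Receptors whose gene symbol starts with GPR were first named without a known ligand, and several have since been given one. Neurons and the sympathetic lineage from which neuroblastoma arises use many of these genes, with the alpha subunit of GNAO1 known as an abundant neuronal form.

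Members were chosen by gene symbol alone, as GPR or RGS followed by a number, GNA symbols of the s, i, o, q, z, L and numbered forms, GNB1 to GNB5, and GNG followed by a number. This gave 115 of the 16500 distinct names in the files, made up of 68 receptor names, 27 G protein subunits and 20 RGS names. Antisense names with a hyphen were left out, and 2 were affected, GNAS-AS1 and GPR158-AS1. The antisense name GPR1AS has no hyphen and therefore counts among the receptor names. Another 9 of these names belong to membrane proteins that are not known to signal as receptors (GPR89A, GPR89B, GPR107, GPR108, GPR137, GPR137B, GPR137C, GPR155 and GPR180). The RGS names include the RGS binding proteins RGS7BP and RGS9BP. All 115 names matched a RefSeq gene, 6 of them through an older symbol, and no 2 names matched the same gene.

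Cells were transfected for 24 hours with WDR5 siRNA-1 or with a control siRNA, and each siRNA gave 1 H3K4me3 library, 1 IgG library and 1 input library. WDR5 is a shared subunit of the complexes that methylate lysine 4 of histone H3, and H3K4me3 is the trimethylated form that marks active promoters. The files hold, for each H3K4me3 library, the names of genes with a peak within 1 kb of a transcription start site (TSS). A table of 3254 promoters called N-Myc-binding and another of 6331 called N-Myc-non-binding add a TSS on the hg19 build for each gene they hold. No peak height, read number or depth comes with the names, so each value below is a call, present or absent, and the depth behind it is unknown. With 1 library per siRNA, 1 siRNA against WDR5 and 1 cell line, no test between the siRNAs was possible, and effects of the siRNA sequence itself cannot be told apart from those of WDR5. The level of WDR5 was not measured in these files. The line's label was checked against promoter calls, and 10 of 12 sympathetic neuroblast markers had a peak with WDR5 siRNA and all 12 with control siRNA. Over all promoter rows these shares were 62.8% and 70.5%. The markers TH and DBH were listed with control siRNA only. Of 9 markers of other cell types named in the files, 8 were in neither list, beside 29.1% of all promoter rows. The keratin gene KRT18 was listed with control siRNA only.

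Over the whole group, 56 names were listed with WDR5 siRNA, against 72 with control siRNA. All 56 were among the 72, so 16 names were listed with control siRNA only and 0 with WDR5 siRNA only. The 16 made up 22.2% of the members with a control peak (exact Clopper-Pearson 95% interval over names 13.3 to 33.6%). Over all names the same share was 13.5% (1845 of 13618), and over the names outside this group it was also 13.5% (1829 of 13546). The intervals treat names as independent draws and cover counting error only, neither library nor replicate error. Taking 3 names as the limit that a count of 0 allows, the share listed with WDR5 siRNA only could be up to 5.36% of the 56, and 0.817% of all WDR5 siRNA names were of that kind. The other 43 members were in neither list and are known only from their promoter rows. Of the 85 members with a promoter row, 36 were listed with WDR5 siRNA and 42 with control siRNA, beside 62.8% and 70.5% of all promoter rows, and the 43 in neither list made up 50.6% (interval 39.5 to 61.6%), beside 29.1%. Among members with a row the control-only share was 14.3% (6 of 42, interval 5.43 to 28.5%), a restriction chosen after the data were seen, and it was 11.6% for the names outside this group.

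**Figure D1:**
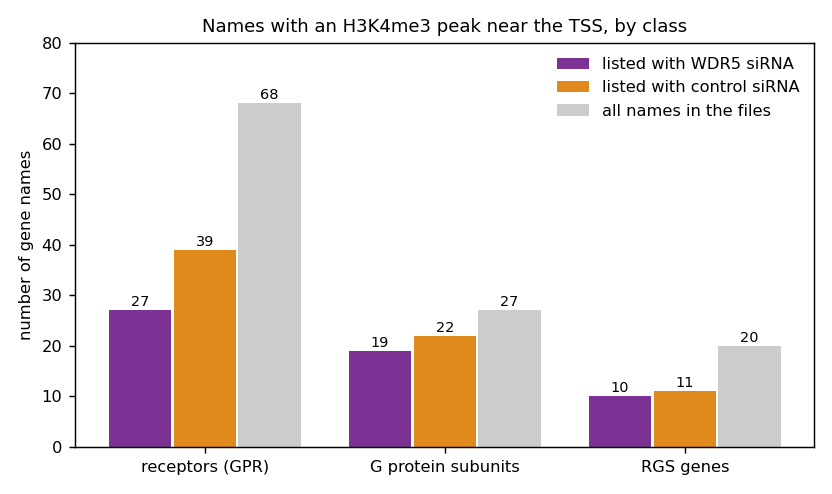
Number of names with an H3K4me3 peak within 1 kb of a TSS (vertical axis) in the WDR5 siRNA library and the control siRNA library, beside all names of that class in the files, 1 library per siRNA. Receptors had 27 names listed with WDR5 siRNA and 39 with control siRNA, G protein subunits 19 and 22, and RGS genes 10 and 11.

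The receptors held 12 of the 16 names listed with control siRNA only. Of 68 receptor names, 27 were listed with WDR5 siRNA and 39 with control siRNA, and 29 were in neither list. The control-only share was 30.8% (12 of 39, interval 17.0 to 47.6%), beside the 13.5% of all control names. It was 13.6% for G protein subunits (3 of 22, interval 2.91 to 34.9%) and 9.09% for RGS genes (1 of 11, interval 0.230 to 41.3%). With only names that have a promoter row, these shares were 6.25% for subunits (1 of 16) and 16.7% for RGS genes (1 of 6). For names with a row outside this group the share was 11.6%. The 3 intervals overlap, and the classes were not tested against each other. Leaving out GPR1AS, the receptor share was 28.9% (11 of 38). Among receptors with a promoter row it was 20.0% (4 of 20, interval 5.73 to 43.7%), beside the same 11.6%. All 4 are N-Myc-non-binding. Among N-Myc-non-binding receptors with a control peak the share was 25.0% (4 of 16, interval 7.27 to 52.4%), beside 17.9% of all such promoters. Among receptors without a row the control-only share was 42.1% (8 of 19), and 15.5% of all control names without a row were listed with control siRNA only.

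Several receptor subfamilies were split between calls. GPR3, GPR6 and GPR12 encode close relatives that raise cyclic AMP without an added ligand, and each took a different call. GPR3 (chromosome 1, position 27719148) was listed in both libraries. GPR6 (chromosome 6, position 110300298) was listed with control siRNA only, and GPR12 (chromosome 13, position 27334922) was in neither list. Adhesion receptors carry large extracellular domains, and the 5 among the receptor names have no promoter row, so each could enter only through a peak list. Of these 5, GPR124, GPR125 and GPR144 were listed in both libraries. GPR64 and GPR98 were listed with control siRNA only, as were 15.5% of all control names without a row. GPR98 is known for its part in hearing and vision.

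Further control-only receptor names were GPR39, GPR78, GPR83, GPR101, GPR146, GPR148 and the antisense name GPR1AS. GPR39 encodes a zinc-responsive receptor. GPR101 (chromosome X, position 136113833) encodes an orphan receptor tied to growth hormone excess. GPR101 and GPR6 are N-Myc-non-binding promoters. Of the control-only receptor names, 8 have no promoter row and thus no position or N-Myc class here.

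Receptors listed in both libraries included whole subfamilies. The SREB receptors GPR27, GPR85 and GPR173, orphan receptors conserved among vertebrates and known from brain, all had a peak in both. So did GPR158 (chromosome 10, position 25464290), a class C receptor that binds R7 RGS proteins, whereas the class C receptor GPR179 was in neither list. GPR161, a ciliary receptor that restrains Hedgehog signalling, GPR37, a substrate of the ubiquitin ligase parkin, and GPR63 were also listed in both. The same held for GPR19, GPR135, GPR153, GPR157, GPR160 and GPR162. All 9 proteins not known to signal as receptors were listed in both, beside 71.4% of all names. Of these, GPR89B, GPR137, GPR137B and GPR137C have no promoter row and could enter only through a peak list. Without the 9, the control-only share of the receptor names was 40.0% (12 of 30, interval 22.7 to 59.4%), beside 13.5% of all control names. The 12 still include GPR1AS. GPR89A and GPR89B are near-identical copies, so their separate calls are uncertain.

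The 29 receptors in neither list made up 59.2% of the 49 with a promoter row (interval 44.2 to 73.0%), beside 29.1% of all promoter rows. They included genes known from immune cells, such as GPR18, GPR34, GPR65, GPR171 and GPR174. Others are known from brain, among them GPR26, GPR45, GPR50, GPR61, GPR139 and GPR151, and GPR119 is a lipid-responsive receptor of the pancreas and gut. A name without a peak may still carry H3K4me3 below the calling threshold.

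Of 13 G protein alpha subunit genes, 10 were listed in both libraries, 1 with control siRNA only and 2 in neither, a share in both near the 71.4% of all names. All 5 genes of the inhibitory Gi/Go group, GNAI1, GNAI2, GNAI3, GNAO1 and GNAZ, were listed in both. The same held for GNA12 and GNA13, whose products act on RhoGEFs, and for GNAQ and GNA11, which activate phospholipase C beta. Their relatives GNA14 and GNA15 were in neither list, and GNA15 is known from blood cells. In the stimulatory group, GNAL, the form first described in olfactory neurons, was listed in both. GNAS, the widely used Gs alpha gene at an imprinted locus with several promoters, was listed with control siRNA only. GNAS filled no row of the WDR5 siRNA list and 2 rows of the control list, while the antisense transcript GNAS-AS1 of the same locus was listed in both. GNAS has no promoter row, so which of its start sites carried the control peaks was not determined.

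Of 5 beta subunits, 3 were listed in both libraries (GNB1, GNB2 and GNB4), beside 71.4% of all names. GNB3, known from cone photoreceptors, and GNB5, the partner of R7 RGS proteins, were in neither. Of 9 gamma subunits, 6 were listed in both (GNG2, GNG3, GNG4, GNG5, GNG7 and GNG12), a share near that of all names. GNG3 is known from neurons. GNG8 (chromosome 19, position 47137939) and GNG13, a gamma subunit known from taste cells, were listed with control siRNA only, and GNG11 was in neither list.

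RGS genes were either listed in both libraries or in neither, apart from RGS9. Of 20 RGS names, 10 were listed in both, beside 71.4% of all names, 1 with control siRNA only and 9 in neither. Among the 15 with a promoter row, those 9 made up 60.0% (interval 32.3 to 83.7%), beside 29.1% of all promoter rows. Of the 8 genes of the R4 family, small RGS proteins acting on Gi and Gq, RGS2, RGS5 and RGS16 were listed in both, and RGS1, RGS4, RGS8, RGS13 and RGS18 in neither. In the RZ family RGS17 and RGS19 were listed in both and RGS20 in neither. RGS10 of the R12 family was listed in both and RGS12 in neither. RGS22 was also listed in both. The R7 family, which pairs with GNB5, was spread over all calls. RGS7 and RGS11 were listed in both, RGS9 (chromosome 17, position 63133456) with control siRNA only, and RGS6 in neither. Of the membrane anchors of this family, RGS9BP was listed in both and RGS7BP in neither.

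**Figure D2:**
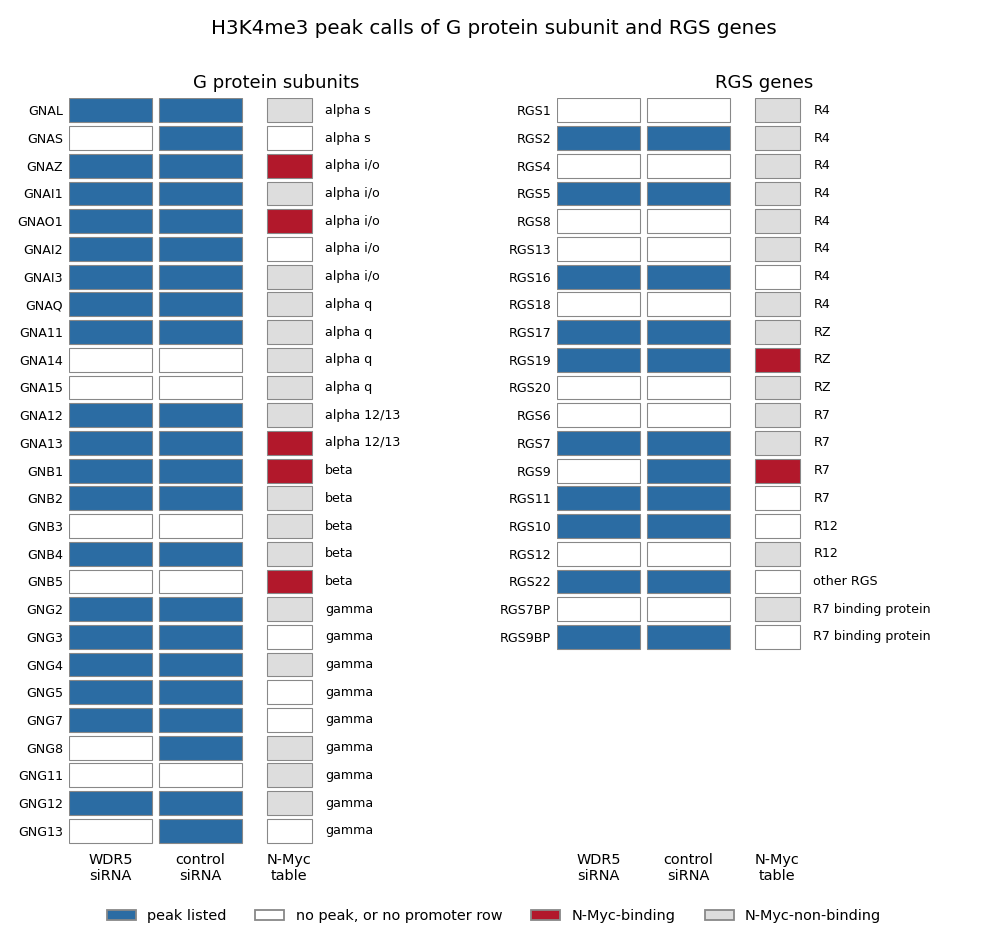
Peak calls of the 27 G protein subunit and 20 RGS names in the WDR5 siRNA library and the control siRNA library, 1 library each, with a filled blue cell for a listed name, and the promoter table of each gene (red, N-Myc-binding; grey, N-Myc-non-binding; white, no promoter row). The 4 genes with an empty WDR5 siRNA cell and a filled control siRNA cell are GNAS, GNG8, GNG13 and RGS9.

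MYCN encodes N-Myc, a transcription factor of the MYC family, and few members were in the table of promoters it binds. Of 85 members with a promoter row, 12 were N-Myc-binding, or 14.1% (interval 7.51 to 23.4%), beside 33.9% of all promoter rows. Among members with a control peak it was 23.8% (10 of 42, interval 12.1 to 39.5%), beside 45.7% of all promoters with a control peak. By class the share was 10.2% for receptors (5 of 49, interval 3.40 to 22.2%), 23.8% for G protein subunits (5 of 21, interval 8.22 to 47.2%) and 13.3% for RGS genes (2 of 15, interval 1.66 to 40.5%). The N-Myc-binding members were GNA13, GNAO1, GNAZ, GNB1, GNB5, GPR19, GPR89A, GPR135, GPR176, GPR180, RGS9 and RGS19. The criterion for binding is not stated in the labels or headers. Of these 12, 9 were listed in both libraries, RGS9 was listed with control siRNA only, and GNB5 and GPR176 were in neither list. Of all N-Myc-binding promoters 5.01% were in neither list.

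The class of the promoter goes with the peak calls over the whole series, so the members were also counted within each table. Among N-Myc-binding members with a control peak, 1 of 10 was listed with control siRNA only (interval 0.253 to 44.5%), beside 4.18% of all such promoters. Among N-Myc-non-binding members it was 5 of 32, or 15.6% (interval 5.28 to 32.8%), beside 17.9%. Both intervals include the share of their table. The 5 included GPR6, GPR101 and GNG8. Unlisted promoters were more frequent among the members than in the table as a whole. In neither list were 41 of 73 N-Myc-non-binding members, or 56.2% (interval 44.1 to 67.8%), beside 41.4% of all N-Myc-non-binding promoters. By class these were 28 of 44 receptors (63.6%, interval 47.8 to 77.6%), 9 of 13 RGS genes (69.2%, interval 38.6 to 90.9%) and 4 of 16 G protein subunits (25.0%, interval 7.27 to 52.4%). The intervals of receptors and RGS genes overlap with that of the subunits, and the difference was not tested.

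The titles of both promoter tables announce an H3K4me3 quantification, but the copies used here hold no values. Their rows come in an order that the headers do not explain, and several G protein genes stood near the top. In the N-Myc-binding table GNAO1 held row 120, GNA13 row 155 and GNB1 row 194 of 3254. The other members listed in both ran from row 660 (GPR89A) to row 3024 (GPR19). In the N-Myc-non-binding table GNAQ held row 50, GNB2 row 60, GPR107 row 85, GNAI1 row 188 and GPR158 row 197 of 6331. The median position of members listed in both was 35.2% of the table length for 27 N-Myc-non-binding promoters, lower in the table than the 23.9% of all such promoters listed in both. For the 11 G protein subunits among them it was 17.6%, for the 12 receptors 37.3% and for the 4 RGS genes 41.5%. Of the control-only members GNG8 lay at 49.0%, GPR6 at 50.2% and GPR101 at 52.4%, and the 41 in neither list between 53.4% (GNG11) and 99.3% (RGS4). The medians of the whole table ran in the same order of calls, at 51.5% for control-only promoters and 78.4% for those in neither list. RGS5 stood apart from the other members listed in both. It held row 6321, and only 6 of the 3019 promoters of that table listed in both stood at or after that row, itself included.

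**Figure D3:**
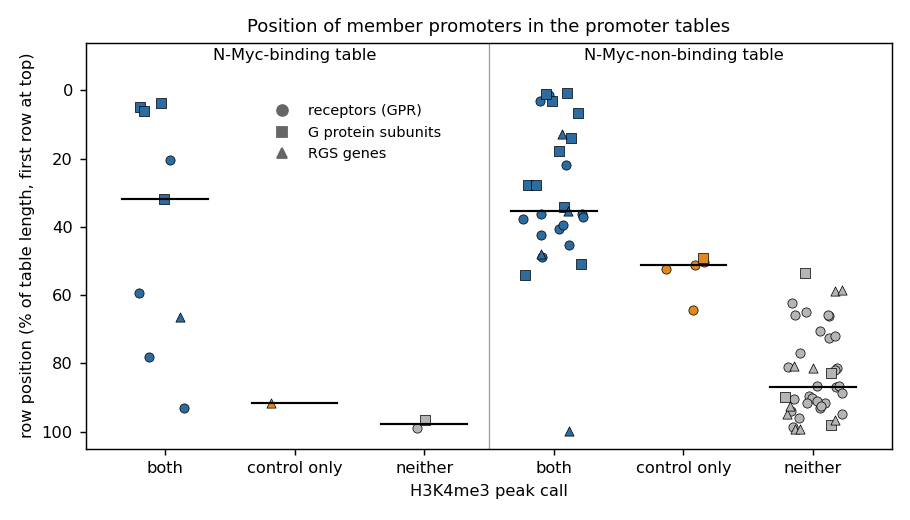
Row position of the 85 member promoters in the 2 promoter tables, as a percent of the table length with the first row at the top (vertical axis), by peak call, with circles for receptors, squares for G protein subunits, triangles for RGS genes and a black bar at the median. In the N-Myc-non-binding table the members listed in both have their median at 35.2%, the control-only ones at 51.3% and those in neither list at 86.7%, and RGS5 is the single blue triangle near the bottom.

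Some members are neighbours in the genome. There were 10 pairs of adjacent members with TSSs within 500 kb, and 6 of them had different calls, beside 41.7% of all adjacent promoters within that distance, so the pairs are given as single cases only. On chromosome 1 the R4 genes RGS18 (position 192127592), RGS1 (192544857), RGS13 (192605268) and RGS2 (192778169) follow each other. Only RGS2, whose product favours Gq as its target, was listed, in both libraries, and its TSS lies 173 kb from that of RGS13. RGS4 (163038396) in neither list and RGS5 (163172963) in both lie 135 kb apart on the same chromosome. Of the Gq group, GNA11 (chromosome 19, 3094408) in both and GNA15 (3136191) in neither lie 41.8 kb apart, and GNAQ (chromosome 9, 80646219) in both and GNA14 (80263232) in neither lie 383 kb apart. GPR61 (chromosome 1, 110082494), in neither list, has its TSS 8.69 kb from that of GNAI3 (110091186), which was listed in both. GNA13 (chromosome 17, 63052920) and RGS9 lie 80.5 kb apart and are both N-Myc-binding. GNA13 was listed in both, and RGS9 with control siRNA only. The 4 pairs with the same call were all in neither list, among them RGS18 and RGS1, RGS1 and RGS13, and GPR34 and GPR82.

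**Figure D4:**
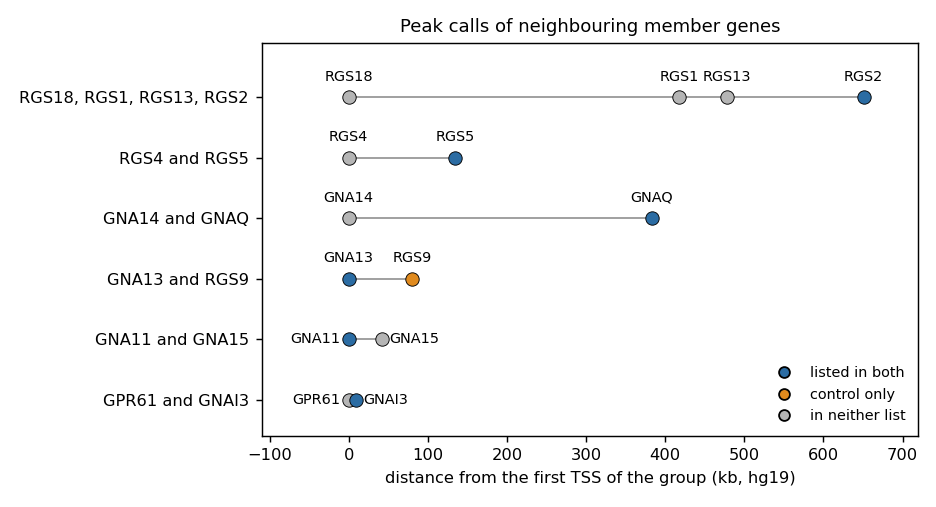
Distance in kb from the first TSS of each group (horizontal axis, hg19) for 6 groups of neighbouring members, coloured by peak call (blue, listed in both; orange, control siRNA only; grey, in neither list). Each group holds 2 different calls, such as GNA13 in both and RGS9 with control siRNA only at 80.5 kb.

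The promoter sequences of neighbours with different calls are shown because they share a region and differ in CpG content. They were picked for these differences, so their CpG counts serve as illustration only. Each is the RefSeq window of 300 bases on the GRCh38.p14 build, from 250 bases before the annotated start to 50 after it, written 5′ to 3′ with every CpG dinucleotide in capitals. RGS18, RGS1 and RGS13 were in neither list, and RGS2 was listed in both.
RGS18, chr1:192158212-192158511, plus strand: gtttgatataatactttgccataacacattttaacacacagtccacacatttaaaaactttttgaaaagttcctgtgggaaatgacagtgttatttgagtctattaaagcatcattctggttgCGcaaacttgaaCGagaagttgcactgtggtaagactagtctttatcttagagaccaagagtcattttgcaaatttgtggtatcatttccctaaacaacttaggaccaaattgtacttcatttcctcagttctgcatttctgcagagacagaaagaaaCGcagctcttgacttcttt
RGS1, chr1:192575523-192575822, plus strand: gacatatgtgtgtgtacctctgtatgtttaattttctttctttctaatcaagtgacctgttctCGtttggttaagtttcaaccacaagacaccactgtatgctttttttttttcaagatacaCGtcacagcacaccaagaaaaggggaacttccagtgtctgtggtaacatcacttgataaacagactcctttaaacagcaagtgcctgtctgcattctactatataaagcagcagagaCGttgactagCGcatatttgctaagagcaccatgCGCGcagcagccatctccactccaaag
RGS13, chr1:192635897-192636196, plus strand: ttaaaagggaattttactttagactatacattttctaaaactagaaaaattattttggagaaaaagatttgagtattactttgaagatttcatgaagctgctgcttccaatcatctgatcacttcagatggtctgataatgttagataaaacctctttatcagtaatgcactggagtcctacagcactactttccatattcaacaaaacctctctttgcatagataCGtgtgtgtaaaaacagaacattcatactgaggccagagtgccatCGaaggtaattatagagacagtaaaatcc
RGS2, chr1:192808789-192809088, plus strand: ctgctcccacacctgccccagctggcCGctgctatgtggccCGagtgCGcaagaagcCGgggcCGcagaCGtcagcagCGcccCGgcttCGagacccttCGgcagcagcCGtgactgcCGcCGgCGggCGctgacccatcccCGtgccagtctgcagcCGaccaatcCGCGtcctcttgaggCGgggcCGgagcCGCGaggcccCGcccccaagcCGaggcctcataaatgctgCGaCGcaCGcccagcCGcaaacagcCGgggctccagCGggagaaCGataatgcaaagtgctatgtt
The windows of RGS18, RGS1 and RGS13 hold 3, 6 and 2 CpG dinucleotides, and that of RGS2 holds 32. In the next pair GPR61 was in neither list and GNAI3 in both, and their windows hold 5 and 25 CpG dinucleotides.
GPR61, chr1:109539622-109539921, plus strand: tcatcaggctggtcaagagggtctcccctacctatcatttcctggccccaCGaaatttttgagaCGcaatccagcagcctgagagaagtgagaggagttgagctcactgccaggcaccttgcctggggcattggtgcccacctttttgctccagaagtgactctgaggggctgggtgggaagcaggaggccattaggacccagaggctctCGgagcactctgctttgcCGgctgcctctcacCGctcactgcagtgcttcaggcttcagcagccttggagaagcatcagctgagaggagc
GNAI3, chr1:109548365-109548664, plus strand: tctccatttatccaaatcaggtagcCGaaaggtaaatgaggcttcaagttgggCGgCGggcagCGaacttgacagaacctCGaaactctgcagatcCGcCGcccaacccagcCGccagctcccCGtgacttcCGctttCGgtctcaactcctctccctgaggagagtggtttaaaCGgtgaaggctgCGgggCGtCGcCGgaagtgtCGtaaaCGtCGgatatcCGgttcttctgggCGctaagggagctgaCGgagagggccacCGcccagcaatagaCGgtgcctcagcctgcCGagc
In the pair of N-Myc-binding promoters, RGS9 was listed with control siRNA only and GNA13 in both, and their windows hold 30 and 47 CpG dinucleotides.
RGS9, chr17:65137120-65137419, plus strand: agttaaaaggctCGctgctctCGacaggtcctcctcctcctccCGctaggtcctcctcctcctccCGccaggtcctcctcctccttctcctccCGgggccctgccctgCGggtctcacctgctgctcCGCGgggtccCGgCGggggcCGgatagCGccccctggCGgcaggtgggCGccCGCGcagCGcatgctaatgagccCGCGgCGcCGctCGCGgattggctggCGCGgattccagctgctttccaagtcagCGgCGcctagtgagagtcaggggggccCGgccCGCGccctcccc
GNA13, chr17:65056691-65056990, minus strand: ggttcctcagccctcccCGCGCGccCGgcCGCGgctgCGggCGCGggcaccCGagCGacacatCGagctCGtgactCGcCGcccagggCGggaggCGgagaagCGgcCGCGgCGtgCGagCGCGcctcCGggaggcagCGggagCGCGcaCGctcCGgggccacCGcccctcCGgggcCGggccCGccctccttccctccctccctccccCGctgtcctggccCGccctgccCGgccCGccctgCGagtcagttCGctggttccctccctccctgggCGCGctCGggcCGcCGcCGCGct
Distances between the RefSeq starts of these neighbours differed by at most 0.094 kb from those between the authors' TSSs. For RGS4 and RGS5 the distances differed by 118 kb, so the RefSeq window of one of them is not at the authors' TSS, and neither is shown.

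CpG content was then compared over the G protein subunits and RGS genes, of which 40 of 47 had a RefSeq window. It was measured as the observed over expected CpG ratio, which sets the number of CpG dinucleotides against that from the C and G content alone. Over all 27305 RefSeq windows the median was 0.580, and 48.9% exceeded 0.6, a customary limit for CpG islands. The 8 RGS names listed in both with a window lay between 0.744 and 0.977 (median 0.888), RGS9 at 0.772, and the 8 in neither list between 0.181 and 0.539 (median 0.375). Among them are the RGS binding proteins RGS9BP (0.758, in both) and RGS7BP (0.198, in neither). The RGS names listed in both thus lay above all of those in neither list. CpG ratios by call were not computed over all promoters, so whether this separation is particular to RGS names was not tested. The RGS values also hold RGS5 (0.948, in both) and RGS4 (0.535, in neither), of which at least 1 window is not at the authors' TSS. Without them, a choice made after seeing the data, the 7 in both had a median of 0.888 and the 7 in neither one of 0.310. For the 17 subunit genes listed in both the median was 0.936, and 14 exceeded 0.6. The exceptions were GNG2 at 0.0758, GNAI2 at 0.149 and GNG3 at 0.209. The control-only subunits had 0.568 (GNG8), 0.487 (GNAS) and 0.333 (GNG13). Those in neither list had 0.602 (GNG11), 0.511 (GNA14) and 0.208 (GNB5), and GNA15 and GNB3 had no window. RefSeq gives 1 start per gene, which need not be the TSS behind the peak call. For the receptors the check is void, since 51 of 68 had a window, or 75.0%.

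**Figure D5:**
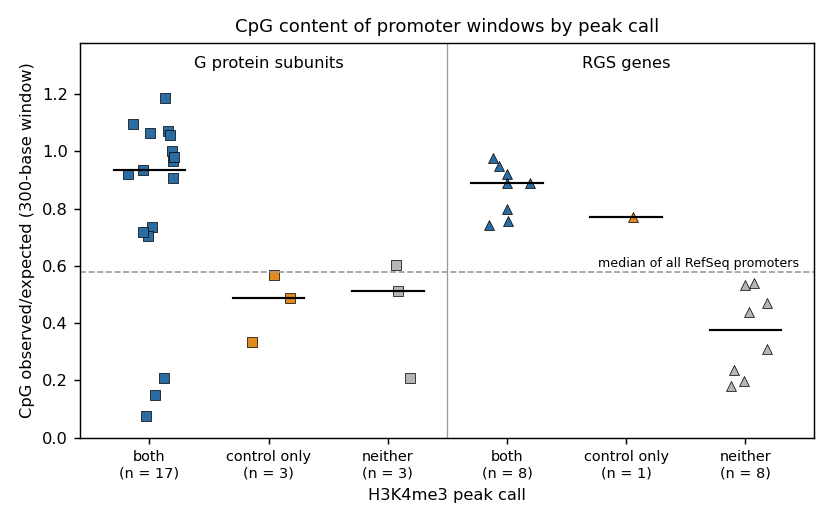
Observed over expected CpG ratio of the 300-base RefSeq promoter window (vertical axis) for 23 G protein subunit and 17 RGS genes, by peak call, with each point 1 gene, a black bar at the median and a dashed line at the median of all RefSeq windows (0.580). The 8 RGS names listed in both lie above all 8 in neither list, with RGS5, RGS4, RGS9BP and RGS7BP included. The subunits listed in both spread from 0.0758 to 1.19.

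The E-box CACGTG, the preferred motif of MYC-family proteins, was searched in the same windows and reads the same on both strands. It was present in 3 of the 40 windows, or 7.50%, beside 7.43% of all RefSeq windows. The 3 windows belong to GNAI1, RGS7 and RGS9BP, all listed in both libraries. GNAI1 and RGS7 are N-Myc-non-binding, and RGS9BP has no promoter row. The sites are shown with the motif in capitals and 12 bases on either side.
GNAI1, chromosome 7: gctgtccgagggCACGTGcgcgggcgcgcg
RGS7, chromosome 1: acgcccctgtccCACGTGactgtcccctcc
RGS9BP, chromosome 19: atgggccacccaCACGTGacctccccgcgt
The motifs begin 86, 55 and 94 bases before the RefSeq start. No CACGTG was found in the windows of the 6 N-Myc-binding genes that had one (GNA13, GNAO1, GNB1, GNB5, RGS9 and RGS19). The variant CATGTG, searched on both strands as CATGTG and CACATG, was present in the windows of GNAS, GNB5 and RGS4, or 7.50%, beside 11.2% of all RefSeq windows. A match or its absence in a window of this length is a description of the letters only.

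Genes that act beside the members in the same route were also counted. Counts cover only genes named in a peak list or promoter table, and those without a promoter row could enter only through a peak list. Of 62 such genes in 12 lists, 43 were listed in both, 5 with control siRNA only and 14 in neither, and 0 with WDR5 siRNA only. The 43 are a share near that of all 16500 names, of which 71.4% were listed in both. The control-only share was 10.4% (5 of 48, interval 3.47 to 22.7%), beside 13.5% of all control names. Of 6 receptor kinases looked for, GRK7 was not among the names, and GRK4, GRK5, GRK6 and ADRBK1 have no promoter row. The 5 named kinases (GRK4, GRK5, GRK6, ADRBK1 and ADRBK2) were listed in both, as were the arrestins ARRB1 and ARRB2, which end receptor signalling. All 5 alpha subunit regulators, among them the chaperones RIC8A and RIC8B, were also listed in both. All 3 RhoGEFs downstream of GNA12 and GNA13 and 5 of 6 protein kinase A subunits, such as PRKACA, were as well. Of 9 adenylyl cyclases, which make cyclic AMP, ADCY1, ADCY3 and ADCY9 were listed in both and ADCY4 and ADCY5 with control siRNA only. PLCB1 and PLCB3 of 4 phospholipase C beta genes were listed in both. Of 13 phosphodiesterases, which degrade cyclic nucleotides, 9 were listed in both, and PDE8B was listed with control siRNA only. Receptors under other names also varied. Of 14 adhesion receptors looked for under other symbols, such as LPHN, BAI, CELSR and CD97, 8 were among the 16500 names. The 7 of them listed in both have no promoter row, so they could enter only through a peak list. CELSR3, which has a row, was in neither list. LGR4 and LGR5, which bind R-spondins, were listed in both. Of the 4 GPRC5 receptors, GPRC5A and GPRC5B were listed with control siRNA only and the other two in neither list. GNAT3, the transducin of taste cells, was in neither list.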

How the data were processed

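H3K4me3 chromatin immunoprecipitation and sequencing was done by the authors in BE(2)-C cells, and the deposited files, in the copies used here, hold gene names and TSS positions in no measured unit. BWA 0.7.12, bedtools and the hg19 build are named in the submitters' processing notes, without a role for either tool. Neither the peak caller nor its threshold or control library is given in the sources used here. The IgG and input libraries were not analysed here.

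Repeated names were counted once, and a name could be in both lists, in 1 only or in neither. Promoter rows were joined to the lists by gene name, so the call of a promoter may rest on a different TSS of its gene. A name in neither list is known only through its promoter row, and names without a row can enter only through a peak list. Members and lists were chosen with earlier results of these data known. Members listed in 1 library only, all N-Myc-binding members, all subunits and all RGS genes are named, with examples of the other receptors, except for some receptors that are not reported here and enter the counts only. Gene subfamilies and pathway lists were written from general knowledge.

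No test was run, since each siRNA has 1 library. Shares carry exact Clopper-Pearson 95% intervals over names. Counting of calls, intervals and sequence measures were tested on simulated data. Promoter windows came from RefSeq (GRCh38.p14) and were used for sequence only. Computation used Python 3.11.15, pandas 2.3.3, scipy 1.17.1 and matplotlib 3.10.9.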

Additional observations from a re-analysis of the deposited data

How the results depend on the processing

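No paired analysis was possible because each siRNA has 1 H3K4me3 library, and for the same reason no replicate could be left out. Restriction to names with a single row, or to names other than non-receptors and RGS binding proteins left the control-only shares of the group and of each class within their intervals over names, as did taking all member names as the denominator. With that denominator the group share was 13.9% (16 of 115), near the lower limit of 13.3%. The intervals are wide, such as 0.230 to 41.3% for RGS genes, so staying within them says little about stability. Counting 1 name per RefSeq gene removed no name, so it does not bear on stability. Keeping only promoters more than 2 kb from any other TSS in the tables removed the names without a promoter row and no others. This planned restriction took the control-only share of receptors from 30.8% (12 of 39) to 20.0% (4 of 20). That of all members went from 22.2% (16 of 72) to 14.3% (6 of 42). The N-Myc-binding share of member promoters moved out of its interval, to 23.8% (10 of 42) among promoters with a control peak, where 45.7% of all promoters were N-Myc-binding. Keeping every name with a promoter row, a choice made after seeing the data, left the same names as the 2 kb restriction. The control-only share of subunits was then 6.25% (1 of 16) and that of RGS genes 16.7% (1 of 6). For names with a row outside this group it was 11.6%. GNAS was lost from the subunits under the single-row restriction, which left 2 of 21 (9.52%). The depth behind the calls is unknown, so an unlisted promoter may carry H3K4me3 that was not called, and a gene listed in both libraries can still differ in level.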

Other observations

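The control list follows genome order, so the names next to a member are mostly its neighbours on the chromosome. Of the 32 names flanking the 16 control-only members, 3 were themselves listed with control siRNA only (9.38%), and over all control-only names of the series the share was 21.7%. The 3 were both neighbours of GPR39 and 1 neighbour of GPR101. For the other 14 control-only members both flanking names were listed in both libraries, such as STX16 and GNAS-AS1 beside GNAS, CALM3 and DACT3 beside GNG8, and GNA13 and AXIN2 beside RGS9. Among members listed in both, 22 of 112 flanking names were control-only (19.6%), beside 12.3% over all names listed in both, and both flanks of GNA12, GPR108 and RGS16 were. These shares were looked at after the calls had been seen and were not tested.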
